A study of Mus musculus with 6 samples.

Results

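Aminoacyl-tRNA synthetases are the enzymes that join each amino acid to its own transfer RNA (tRNA), so that the ribosome can read the message. The 36 genes described here encode 20 cytosolic and 16 mitochondrial synthetase subunits. They were taken by gene symbol from a list that uses no measured value but was drawn up with earlier results of these data known, and a symbol ending in 2 marked an enzyme as mitochondrial. They are 36 of the 26771 genes listed in any of the deposited tables, and each of the 36 was listed in all 6 libraries. The tables came from messenger RNA of γδT17 cells, the interleukin-17 producers among γδ T cells. All mice were C57BL/6 and TCRβ-/-, so they lacked the β chain of the T cell receptor and with it the αβ T cells. In the Initial group the cells had been sorted out of spleen and never cultured, and the sources used here do not give the sorting gate. The Induced group held splenocyte cultures based on IL-1β and IL-23, harvested at day 8 and purified with a magnetic T cell kit, of which the labels say that most cells made IL-17A. Each group had 3 libraries, and mice A, B and C each appear once in both. The age of the mice and the other contents of the culture medium are not given in the sources used here. Whether the Initial cells passed the magnetic kit is not given either, so culture, stimulation and handling cannot be told apart.

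Protein synthesis runs on separate machinery in the cytosol and in mitochondria, and most amino acids have one synthetase gene for each place. Both sets of genes lie in the nucleus, and the mitochondrial enzymes are made in the cytosol and imported. Kars and Gars are exceptions, because each of these single genes makes the lysyl or glycyl enzyme of both places. Eprs encodes one protein that charges both glutamate and proline, which in mitochondria are served by the separate genes Ears2 and Pars2. Mitochondria have no glutaminyl enzyme of their own, and make their glutaminyl-tRNA by charging that tRNA with glutamate and converting it with an amidotransferase. In the cytosol a group of synthetases is held in a large multisynthetase complex by scaffold proteins, while the others are not part of that complex. In lymphocytes, activation and growth are known to come with more protein synthesis, and several cytosolic synthetase genes are known targets of ATF4, the transcription factor of the amino acid and stress response.

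Values are FPKM, fragment counts scaled to transcript length and library size, so levels of different genes can be compared per length. Initial libraries had an estimated depth of 20000000 to 23400000 fragments, and Induced ones of 22400000 to 25100000, judged by the steps between low values. At an FPKM of 1 and a transcript of 2 kb, counting alone then gives a coefficient of variation of 14.1 to 15.8%. Fold changes are log2 differences of FPKM + 1, Induced against Initial, which understates the change of genes with low values. Adjusted p-values are from limma with Benjamini-Hochberg adjustment over all 11265 genes tested, and a gene is said to have risen or fallen where that value was under 0.05.

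The Initial libraries held RNA of other cells. Summed FPKM ran from 567 to 1089 for 10 macrophage markers, from 217 to 262 for 10 B cell markers, from 221 to 264 for 6 plasma cell markers and from 1220 to 1745 for 7 red cell markers. In the Induced libraries the same sums were 3.84 to 5.79, 26.1 to 51.4, 4.14 to 7.58 and 1.17 to 1.64, and the red cell gene Alas2 and the plasma cell gene Tnfrsf17 were at 0. Of these markers 10 of 10, 8 of 8, 3 of 5 and 7 of 7 tested genes fell. The 14 markers of γδT17 cells summed to 1907 to 2061 FPKM before culture and 2239 to 2718 after it, with none at 0, and 7 of them rose while 2 fell. All 14 proliferation markers rose, from sums of 250 to 291 to sums of 1809 to 1969. The part of cell makeup and of proliferation in the values below was not tested. In bulk RNA, fewer cells of a type and less RNA per cell cannot be told apart.

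Cytosolic synthetase genes were mostly higher in Induced cells, and mitochondrial ones moved in both directions. Of the 20 cytosolic genes, all of which were tested, 13 rose, none fell and 7 did not pass the test. Of the 16 mitochondrial genes 15 were tested, of which 4 rose, 4 fell and 7 did not pass. Over all genes tested, 37.3% rose and 33.1% fell. The cytosolic count of rises is 65% of its members and the mitochondrial one 26.7%. The median log2 fold change was 0.45 for the cytosolic genes and 0.05 for the mitochondrial genes, beside 0.03 for all genes tested. Cytosolic changes ran from -0.19 to 1.32 and mitochondrial changes from -0.58 to 1.47. Rises of at least 2-fold were seen for 3 cytosolic genes and 1 mitochondrial gene, beside 12.0% of all genes tested. Kars stood at that limit, and it was below 1 on the log2 scale at a pseudocount of 5 (0.97), with a common sum (0.998), TMM-like factors (0.95) or quantile normalization (0.96) and without Initial B (0.96), as was Pars2 at a pseudocount of 5 (0.85).

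**Figure D1:**
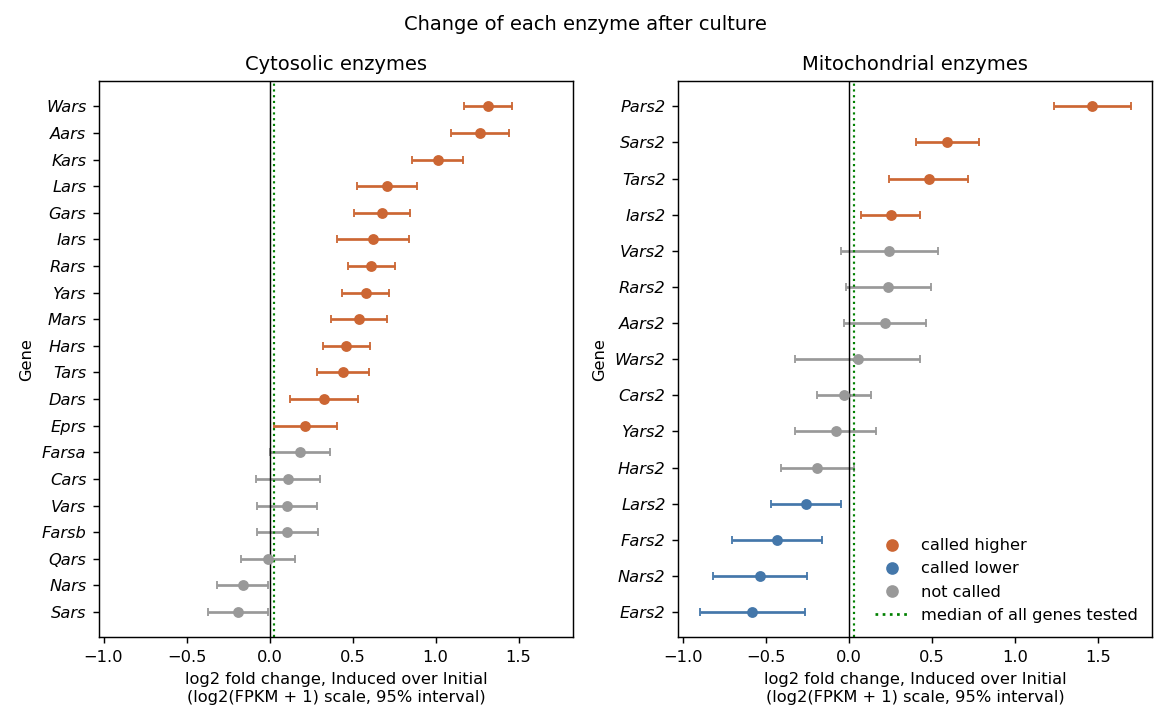
Log2 fold change of FPKM + 1, Induced against Initial, for the 35 tested synthetase genes, with points at the estimate coloured by call, bars for the 95% confidence interval, a dotted line at the median of all genes tested, and the cytosolic and mitochondrial genes in separate panels. Wars (1.32) and Aars (1.27) lead the cytosolic genes, Pars2 (1.47) stands alone among the mitochondrial genes, and Ears2 (-0.58) lies lowest.

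The summed level showed the same split. The 20 cytosolic genes added up to 888, 886 and 901 FPKM in the Initial libraries of mice A, B and C, and to 1209, 1192 and 1258 in the Induced ones. The groups did not overlap. The 16 mitochondrial genes added up to 176, 178 and 179 in the Initial libraries and to 185, 177 and 197 in the Induced ones. Here the Induced library of mouse B lay inside the Initial range. The cytosolic sum was 5.04, 4.99 and 5.02 times the mitochondrial sum in the Initial libraries and 6.52, 6.74 and 6.39 times in the Induced ones. As a share of all FPKM, cytosolic synthetases took 0.196 to 0.205% in Initial and 0.267 to 0.277% in Induced cells, and mitochondrial ones 0.0391 to 0.0411% and 0.0396 to 0.0434%.

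Libraries of one group lay close together. The median coefficient of variation over 3 libraries was 5.49% for cytosolic and 7.99% for mitochondrial genes, and the widest was 28.2% for Wars2, which is expressed near 2 FPKM. Among the tested synthetase genes the groups did not overlap, with Induced higher, for 13 cytosolic and 5 mitochondrial genes, beside 40.0% of all genes tested. They did not overlap with Induced lower for 1 cytosolic gene, Nars, and 4 mitochondrial genes, beside 35.4% of all genes tested, and the untested Mars2 was separated in the same direction. Within the 3 mice, 14 cytosolic genes were higher after culture in all 3 and 2, Nars and Sars, were lower in all 3. Of the mitochondrial genes 6 were higher in each mouse and 6, with Mars2 among them, lower in each. The share of all genes with the same direction in each mouse is not given here.

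**Figure D2:**
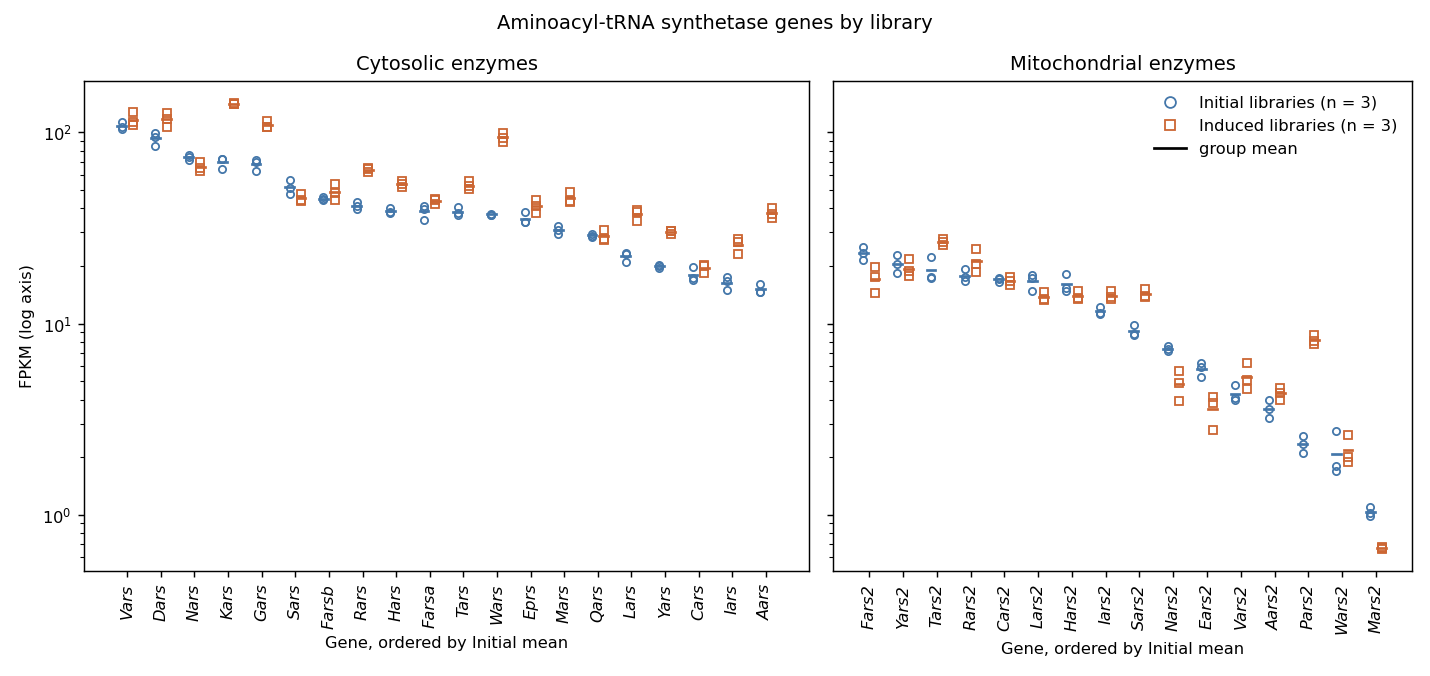
FPKM of the 36 synthetase genes in each library on a log axis, with points for single libraries coloured by group and genes ordered by their Initial mean within each compartment. Initial means run from 15.1 (Aars) to 108 (Vars) for cytosolic genes and from 1.03 (Mars2) to 23.4 (Fars2) for mitochondrial genes.

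The 3 cytosolic genes with rises of at least 2-fold were Wars, Aars and Kars. Wars, the cytosolic tryptophanyl enzyme, lies on chromosome 12 at 108860030 to 108894174 (GRCm38, minus strand). Its FPKM was 37.6, 36.9 and 37.1 in the Initial libraries and 93.9, 99.4 and 89.6 in the Induced ones. The Initial values were nearly the same in the 3 mice, and every Induced value was far above them. The log2 fold change was 1.32 with a standard error (SE) of 0.06 (adjusted p = 9.6e-07, n = 3 per group). Wars is also known as a gene that interferon-γ induces. Of 9 tested genes of a list of interferon-γ induced genes 8 rose, beside 37.3% of all genes tested. Among the rises were Iigp1, a GTPase of cell defence (6.48 ± 0.615 to 284 ± 74.2 FPKM, SD), Gbp2 (56.9 ± 1.92 to 359 ± 37.0) and Gbp3 (22.5 ± 0.620 to 88.5 ± 5.73).

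Aars, the cytosolic alanyl enzyme, lies on chromosome 8 at 111033144 to 111057664 on the plus strand. Its FPKM was 14.6, 14.6 and 16.2 in the Initial libraries and 37.4, 40.3 and 35.7 in the Induced ones. The groups were well apart, and Aars had the lowest Initial mean of the 20 cytosolic genes (15.1 ± 0.926, SD) and a mean of 37.8 ± 2.29 in Induced cells. The log2 fold change was 1.27 (SE 0.08, adjusted p = 3.3e-06). An exon of Exosc6, a subunit of the RNA exosome, covers 1326 bases of Aars exons on the same strand, 14.3% of them, so the counting could split reads there. Exosc6 itself went from a mean of 29.1 to 23.7 FPKM.

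Kars, which charges lysine in cytosol and mitochondria, lies on chromosome 8 at 111993443 to 112011323 on the minus strand. Its FPKM was 72.5, 64.6 and 72.3 in the Initial libraries and 142, 141 and 141 in the Induced ones. The Induced values hardly differed from each other, and they made Kars the synthetase gene with the highest mean in Induced cells. The log2 fold change was 1.01 (SE 0.07, adjusted p = 5.0e-06). Gars, the other gene that serves both places, rose by 0.68 on the log2 scale, with 68.1 ± 4.69 FPKM in Initial and 109 ± 4.68 in Induced cells.

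The other 9 cytosolic rises were smaller. Lars (leucine, 22.6 ± 1.28 to 37.5 ± 2.63 FPKM), Iars (isoleucine, 16.4 ± 1.33 to 25.8 ± 2.42) and Rars (arginine, 41.3 ± 1.78 to 63.7 ± 1.66) rose by 0.71, 0.62 and 0.61 on the log2 scale. Yars (tyrosine, 0.58), Mars (methionine, 0.54), Hars (histidine, 0.46) and Tars (threonine, 0.44) followed, all without overlap between the groups. Dars (aspartate) rose from 93.0 ± 7.67 to 117 ± 9.49, a log2 fold change of 0.33. Eprs had the smallest called change, 0.21 (35.4 ± 2.39 to 41.2 ± 3.24, adjusted p = 0.046). Its groups overlapped, it was higher in 2 of 3 mice, and with the mouse as a block its adjusted p was 0.071. The call was also lost without Initial A, Initial C, Induced A or Induced C, with changes from 0.16 to 0.21, and with no filter (adjusted p = 0.087), a common sum (0.069), TMM-like factors (0.11), quantile normalization (0.13) or the ordinary moderated test (0.067). Iars shares 96.0% of 1656 bases with the pseudogene Gm4849, which the tables do not list, so reads could be split or joined there. Mars and Ddit3 overlap by 68 bases on opposite strands, and the sources used here do not say if counting was by strand.

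The 7 cytosolic genes that did not pass the test include some of the most abundant ones. Vars, the valyl enzyme, had the highest Initial mean of all 36 genes. Its FPKM was 114, 107 and 104 in the Initial libraries and 109, 113 and 128 in the Induced ones, so the groups overlapped. The difference was 0.11 with a 95% confidence interval of -0.07 to 0.29. Farsb, the β subunit of the phenylalanyl enzyme, gave 44.4, 44.7 and 46.2 FPKM and then 48.4, 44.3 and 53.6, also with overlap (0.11, interval -0.08 to 0.29). Qars, the glutaminyl enzyme, gave 28.8, 28.4 and 29.5 FPKM and then 31.0, 27.4 and 27.8. The Induced library of mouse A lay above the Initial range and those of mice B and C below it, and the difference was -0.01 (interval -0.17 to 0.15).

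Farsa, the α subunit of the phenylalanyl enzyme, was higher by 0.18 (34.7 to 41.3 FPKM in Initial, 42.4 to 44.8 in Induced) and missed the threshold with an adjusted p of 0.067. The subunits of that enzyme are needed together, and the ratio of Farsa to Farsb was 0.783, 0.892 and 0.894 in the Initial libraries and 0.877, 1.01 and 0.832 in the Induced ones. The ratios overlapped. Cars (cysteine) gave at most 19.8 FPKM in Initial and 18.4 to 20.4 in Induced cells, with overlap (0.11). Nars (asparagine) and Sars (serine) had, with Qars, the only cytosolic changes below 0. Nars gave 74.1 ± 2.63 and 66.1 ± 3.69 FPKM, a difference of -0.16 (adjusted p = 0.057), and Sars 51.7 ± 4.37 and 45.1 ± 2.23, a difference of -0.19 (adjusted p = 0.061). With the mouse as a block Sars passed as lower (adjusted p = 0.039), as it did without Initial A (-0.24) or without Induced C (-0.23). Nars and Sars both passed as lower with a common sum (adjusted p = 0.048 and 0.031), with TMM-like factors (0.013 for both) and with quantile normalization (0.020 and 0.011), and Nars also without Induced C (0.024). After scaling to Trdc and the CD3 chains, Nars, Sars and Qars were all above 0, at 0.06, 0.03 and 0.21.

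The order of cytosolic levels shifted. In Initial cells the highest means belonged to Vars, Dars, Nars, Kars and Gars, and in Induced cells to Kars, Dars, Vars, Gars and Wars. In Induced cells Dars (107 to 126 FPKM), Vars (109 to 128) and Gars (106 to 115) overlapped, so their order is not beyond their spread, while Kars (141 to 142) lay above all 3.

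Most genes of the multisynthetase complex rose. Of its 8 enzyme genes (Dars, Eprs, Iars, Kars, Lars, Mars, Qars and Rars) 7 rose, beside 37.3% of all genes tested, with Qars the exception. The call of Eprs was lost in 10 of 17 alternatives, as given above. The median log2 fold change of the 8 was 0.57. Of the 12 cytosolic genes outside the complex 6 rose, with a median of 0.31. The difference between these counts was not tested. Among the scaffold genes Aimp2 rose from 24.6 ± 0.990 to 56.3 ± 6.12 FPKM (1.16) and Eef1e1, which encodes the scaffold AIMP3, from 23.2 ± 1.43 to 43.2 ± 2.91 (0.87). Aimp1 gave 27.8 ± 3.78 and 32.5 ± 1.96 and did not pass (0.22, adjusted p = 0.089). By the fold of the catalytic domain, 7 of 10 cytosolic class I genes and 6 of 10 class II genes rose. Eprs, which charges both glutamate and proline, was counted in class I only, and its call is among the 7. In mitochondria 1 of 8 tested class I genes rose and 2 fell, and of 7 class II genes 3 rose and 2 fell. Over all genes tested, 37.3% rose and 33.1% fell.

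Several cytosolic synthetase promoters hold the letters of the element that ATF4 binds together with C/EBP proteins, TGATGNAA on either strand. RefSeq promoter windows (GRCm38.p6) from 250 bases before to 50 after the start were found for 26 of the 36 genes. The letters were present in 5 of 12 cytosolic windows (Aars, Gars, Iars, Tars and Yars) and in 0 of 14 mitochondrial ones, while 4.51% of 27025 genes with such windows hold them. The stretches are shown because these 5 genes rose together, with changes from 0.44 to 1.27. They read 5′ to 3′ on the gene's strand, with the element in capitals, as TGATGNAA or as its reverse complement. A match is a description of the letters and not a bound site.
Aars, chr8:111033840-111033869 (+): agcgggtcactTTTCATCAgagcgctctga
Gars, chr6:55037960-55037989 (+): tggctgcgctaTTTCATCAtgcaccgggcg
Iars, chr13:49682126-49682155 (+): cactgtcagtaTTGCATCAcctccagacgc
Tars, chr15:11399655-11399684 (-): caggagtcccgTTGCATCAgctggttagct
Yars, chr4:129189895-129189924 (+): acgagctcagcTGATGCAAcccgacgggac

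Positions are counted from +1 at the start that RefSeq gives in this table, which differs from the GENCODE gene start for each of the 5 genes. In the stretches shown, the capitals stand at +10 to +17 in Aars, at -30 to -23 in Gars, at +8 to +15 in Iars, at -15 to -8 in Tars and at +4 to +11 in Yars. Of these stretches, that of Yars holds the letters in the forward direction. Aars had the largest rise of the 5. The 7 other cytosolic genes with a window were Kars, Dars and Eprs, which rose, and Farsa, Farsb, Qars and Sars, which did not pass, with changes from -0.19 to 1.01. The windows were also searched for the E-box CACGTG, which MYC and USF proteins can bind, on both strands. It was present in 4 of 12 cytosolic windows (Aars, Farsb, Iars and Tars) and in 1 of 14 mitochondrial ones (Ears2), beside 8.09% of all genes.

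The Iars stretch from -100 to -1 holds its E-box at -69 to -64, while its element lies after the start.
Iars, chr13:49682030-49682129 (+): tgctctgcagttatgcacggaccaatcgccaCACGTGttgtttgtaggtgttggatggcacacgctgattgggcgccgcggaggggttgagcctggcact
The interferon-stimulated response element was found in 1 of 12 cytosolic windows, that of Qars, beside 3.99% of all genes, and Wars had no window to search.

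Other genes of the ATF4 response went in both directions. Of 12 synthetase genes known as ATF4-linked 9 rose, and of the 8 other cytosolic ones 4 rose. The difference between these 2 counts was not tested. Beside these counts and those that follow, 37.3% of all genes tested rose and 33.1% fell. Of 23 tested targets of the integrated stress response, the pathway that acts through the initiation factor eIF2, 13 rose and 6 fell. The largest changes were falls of Atf3 (82.8 ± 10.1 to 0.629 ± 0.187 FPKM), Ppp1r15a, which restores eIF2 activity (249 ± 26.2 to 7.83 ± 0.660), and Cebpb (202 ± 35.1 to 34.5 ± 3.06), and a rise of Asns, asparagine synthetase (0.999 ± 0.130 to 22.8 ± 1.11). Atf4 itself, named here after its values were seen, gave 151, 137 and 155 FPKM in the Initial libraries and 43.9, 48.8 and 44.8 in the Induced ones. Its messenger RNA fell by 1.67 on the log2 scale (adjusted p = 7.1e-07), while ATF4 protein, which is known to be set by translation, was not measured. Of 13 genes for eIF2 kinases and for subunits of eIF2 and its exchange factor, 7 rose, with Eif2ak2 (0.70), Eif2b1 (0.61) and Eif2s1 (0.53) in front, and 1 fell, Eif2ak3 (-0.62).

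Among mitochondrial genes Pars2, the prolyl enzyme, on chromosome 4 at 106651069 to 106655282 (plus strand), changed the most on the scale used. Its FPKM was 2.57, 2.09 and 2.36 in the Initial libraries and 8.75, 7.86 and 8.06 in the Induced ones. Every Induced value was more than 3 times every Initial one. The log2 fold change was 1.47 (SE 0.10, adjusted p = 6.3e-06), the largest of the 35 genes tested at a pseudocount of 1. It was 0.85 at a pseudocount of 5, below Wars (1.23), Aars (1.09) and Kars (0.97), and with the libraries scaled to T cell identity genes it was 2.17, beside a slightly larger change of Wars. Sars2, the seryl enzyme, gave 9.86, 8.67 and 8.82 FPKM and then 13.9, 15.1 and 13.8, without overlap, and rose by 0.59 (SE 0.08, adjusted p = 3.3e-04). Tars2 (threonine) rose from 19.0 ± 2.79 to 26.8 ± 0.974, by 0.48. Iars2 (isoleucine) rose from 11.6 ± 0.575 to 14.0 ± 0.683, by 0.25 (adjusted p = 0.018), and that call was lost without Initial A (adjusted p = 0.055), without Initial C (0.051) or without Induced C (0.051). Of the exon bases of Iars2 22.9% overlap Rab3gap2 on the opposite strand, a gene with means of 10.9 and 12.3 FPKM.

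The 4 mitochondrial genes that fell were Ears2, Nars2, Fars2 and Lars2. Ears2, the glutamyl enzyme, on chromosome 7 at 122037213 to 122067263 (minus strand), gave 5.25, 5.92 and 6.21 FPKM in the Initial libraries and 3.83, 2.77 and 4.12 in the Induced ones. The groups did not overlap, and all 3 mice were lower after culture. The log2 fold change was -0.58 (SE 0.14, adjusted p = 0.0057). Nars2 (asparagine) went from 7.38 ± 0.268 to 4.83 ± 0.867 FPKM (-0.53), Fars2 (phenylalanine) from 23.4 ± 1.74 to 17.2 ± 2.66 (-0.43) and Lars2 (leucine) from 16.7 ± 1.61 to 13.8 ± 0.743 (-0.26, adjusted p = 0.032). These falls depended on the scaling. With the libraries scaled to T cell identity genes, the median of all genes was 0.83. The values there were 0.15 for Ears2, 0.23 for Nars2, 0.42 for Fars2 and 0.58 for Lars2. Scaled to the CD3 chains and Trdc, the calls of Lars2 (-0.05, adjusted p = 0.67) and Fars2 (-0.22, adjusted p = 0.15) were lost. Ears2 (-0.40) and Nars2 (-0.34) kept theirs there. The Lars2 call was also lost without Initial A, Initial C, Induced B or Induced C, with changes from -0.21 to -0.24. With no filter Lars2 missed the threshold as well (adjusted p = 0.062). Fars2 overlaps Nrn1 by 501 bases on the opposite strand, and Nrn1 was at most 1.33 FPKM.

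The 7 tested mitochondrial genes that did not pass were Aars2, Cars2, Hars2, Rars2, Vars2, Wars2 and Yars2. Cars2, the cysteinyl enzyme, gave 17.2, 16.4 and 17.4 FPKM and then 16.7, 15.8 and 17.5, and the groups overlapped. The difference was -0.03, with an interval of -0.19 to 0.14. Yars2 (tyrosine) gave 20.4, 18.3 and 22.9 FPKM and then 17.7, 18.8 and 21.6, a difference of -0.08 with an interval of -0.33 to 0.17. Wars2 (tryptophan) gave 1.69, 2.75 and 1.79 FPKM and then 1.88, 2.01 and 2.63, a difference of 0.05 with a wide interval of -0.32 to 0.43. Aars2 was higher in each mouse without overlap and still missed the threshold (0.22, adjusted p = 0.10). Mars2, the methionyl enzyme, was not tested because it reached 1 FPKM in only 2 libraries. Its values were 1.10, 0.980 and 1.02 in the Initial libraries and 0.666, 0.664 and 0.680 in the Induced ones, so the groups did not overlap. Tarsl2, a further threonyl enzyme, is not on the list and is named here after its values were seen, and it rose from 1.63 ± 0.358 to 3.60 ± 0.410 (0.81).

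For 13 amino acids both the cytosolic gene and its mitochondrial counterpart of the same name were among the 36, and in 12 of these pairs both were tested. The cytosolic gene had the larger change in 9 of the 12, with a median difference of 0.37 and a range of -0.78 to 1.26. On the scale of log2(FPKM + 1), the pairs with a difference of at least 1 were Wars with Wars2 (1.26) and Aars with Aars2 (1.05). Without the added 1, the log2 ratio also changed by at least 1 for Mars with the untested Mars2 (1.17) and, barely, for Lars with Lars2 (1.005). Wars was 22.3, 13.4 and 20.8 times Wars2 in the Initial libraries and 49.9, 49.5 and 34.1 times in the Induced ones. Aars was 4.54, 4.11 and 4.08 times Aars2 in the Initial libraries, and Aars2 itself gave 3.21, 3.55 and 3.96 FPKM there and 3.98, 4.33 and 4.63 in the Induced ones. The ratio of Aars to Aars2 was then 9.39, 9.29 and 7.72. Neither ratio overlapped between the groups.

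Over the 13 ratios of cytosolic to mitochondrial level, the groups did not overlap with Induced higher in 10 and with Induced lower in 1. They overlapped in 2, those of Tars and Vars. Of all single genes tested, 40.0% did not overlap with Induced higher and 35.4% with Induced lower. No such share is given for ratios of other genes. The ratio that was lower in Induced cells was that of Sars to Sars2, which was 4.83, 5.88 and 6.39 in the Initial libraries and 3.14, 2.92 and 3.46 in the Induced ones. With 3 libraries against 3 the two-sided exact permutation test cannot give a p below 0.1, and it gave that value in the 11 ratios without overlap (0.12 after adjustment over 13). That test did not use the pairing by mouse. In the pair of Cars and Cars2 the nearest libraries of the groups were both at 1.14, so that separation is slight. In 11 pairs the cytosolic gene had the higher level in every library, and the exceptions were Yars and Cars. Yars was 0.976, 1.11 and 0.853 times Yars2 in the Initial libraries and 1.67, 1.63 and 1.41 times in the Induced ones, so the pair went from near equal levels to a higher cytosolic level.

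**Figure D3:**
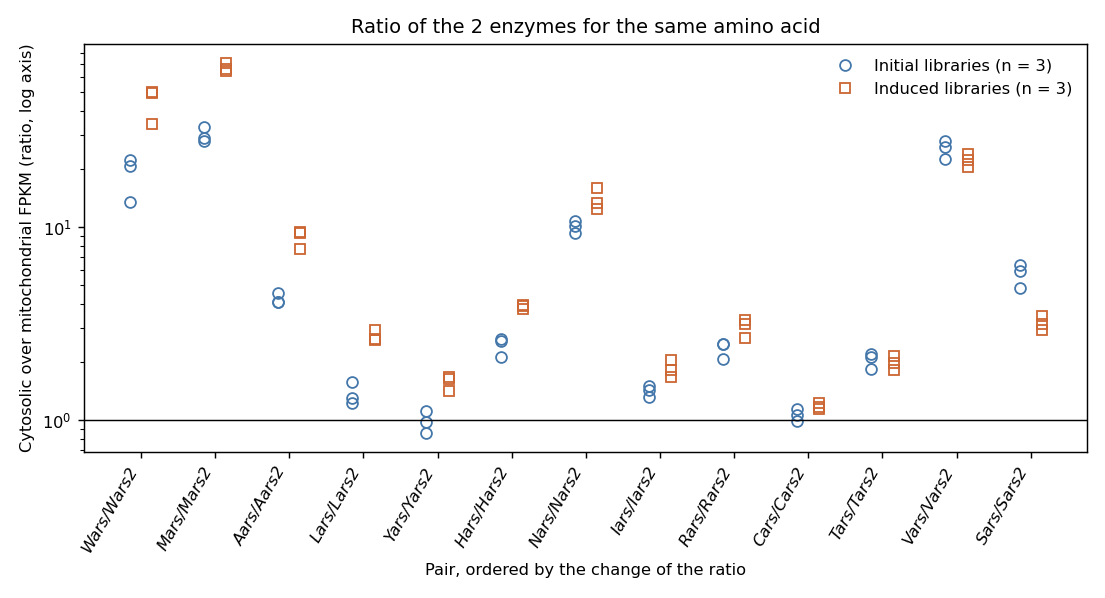
Ratio of the FPKM of the cytosolic gene to that of its mitochondrial counterpart on a log axis, for 13 pairs, with 1 point per library coloured by group. The Induced points lie above the Initial points in 10 pairs and below them for Sars and Sars2, and the pairs of Tars and Vars overlap.

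The enzymes for glutamate and proline went apart. Cytosolic Eprs, which charges both, was 6.47, 6.45 and 5.49 times Ears2 in the Initial libraries and 10.8, 13.7 and 10.8 times in the Induced ones. It was 13.2, 18.2 and 14.5 times Pars2 in the Initial libraries and 4.71, 4.84 and 5.52 times in the Induced ones. Neither ratio overlapped, and they moved in opposite directions. Beside 37.3% of all genes tested, 3 of 4 genes for mitochondrial glutaminyl-tRNA and for formylation of the initiator tRNA rose. Those were the amidotransferase genes Gatc (5.23 ± 0.866 to 9.25 ± 0.760 FPKM, 0.73), Qrsl1 (8.56 ± 0.887 to 12.2 ± 0.422, 0.47) and Gatb (3.39 ± 0.430 to 4.51 ± 0.518, 0.33). Ears2, which charges the tRNA that these subunits convert, fell, as given above. The ratio of cytosolic Qars to Qrsl1 was at least 3.08 in the Initial libraries and at most 2.59 in the Induced ones.

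Genes that make, mature or use tRNA were counted in the same way, beside 37.3% of all genes tested that rose and 33.1% that fell. Of 15 genes for tRNA maturation and export 10 rose and none fell, among them the splicing endonuclease subunits Tsen34 (10.2 ± 0.666 to 23.9 ± 1.14 FPKM) and Tsen15 and the tRNA ligase Rtcb (64.5 ± 2.04 to 101 ± 2.78). Of 22 genes of RNA polymerase III, which transcribes tRNA genes, and of its factors 10 rose and 5 fell. Polr3k rose from 11.9 ± 1.24 to 26.1 ± 2.25, and Maf1, the repressor of that polymerase, fell from 173 ± 6.14 to 95.1 ± 0.932. Of 7 genes for tRNA editing, peptidyl-tRNA hydrolysis and synthetase relatives 3 rose, Ptrh2 (0.92), Dtd2 (0.84) and Aarsd1 (0.79).

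Translation factors were counted for each compartment, beside the same 37.3% of rises and 33.1% of falls over all genes tested. Of 6 cytosolic elongation factor genes 1 rose, Eif5a (0.33), and 3 fell, Eef1a1 (-0.36), Eef2 (-0.28) and Eef1d (-0.23). Of 10 mitochondrial translation factor genes 7 rose and none fell, with Tsfm, the exchange factor of the mitochondrial elongation factor, at 16.8 ± 1.81 to 28.8 ± 1.84 FPKM (0.75), Mtif3 at 0.70, Mtrf1l at 0.61 and Mtrf1 at 0.61. The share of rises was 65% among cytosolic synthetases and 16.7% among cytosolic elongation factors, and it was 26.7% among mitochondrial synthetases and 70% among mitochondrial translation factors. These shares were not tested against each other.

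**Figure D4:**
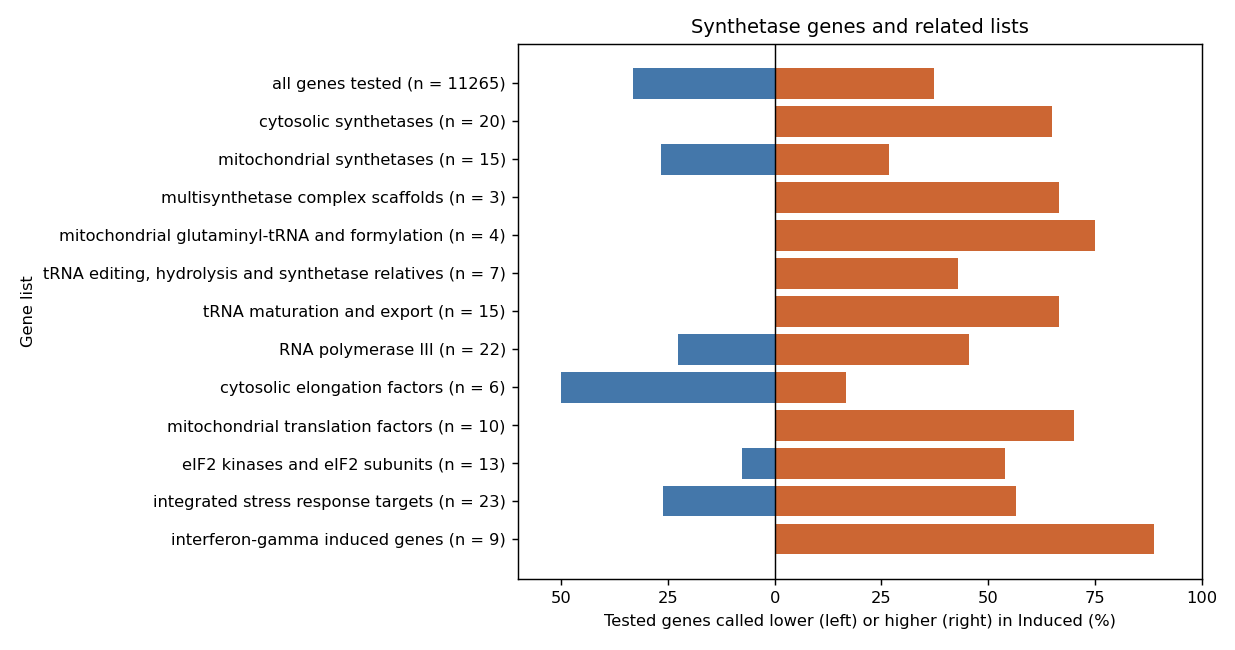
Percentage of tested genes that rose (bars to the right of 0) or fell (bars to the left) in each list, for the synthetase groups and the lists of related genes, with the number tested beside each name. The cytosolic synthetases (13 rises of 20) and the tRNA maturation genes (10 of 15) show no fall, while RNA polymerase III (10 rises, 5 falls of 22) shows both.

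The scaling of the libraries moved the counts. The median log2 fold change of all genes tested was 0.03 as reported. It was 0.23 after scaling to the CD3 chains and Trdc and 0.83 after scaling to 20 T cell identity genes. With the latter all 20 cytosolic and 13 mitochondrial genes rose and none fell, and of all genes called 85.4% were rises, beside 52.9% without that scaling and 66.8% with the CD3 chains and Trdc. Of the 20 T cell identity genes 12 had themselves fallen. Relative to the median of all genes, the cytosolic median stood between 0.34 and 0.50 and the mitochondrial median between -0.12 and 0.16 as reported and under the 17 alternatives.

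**Figure D5:**
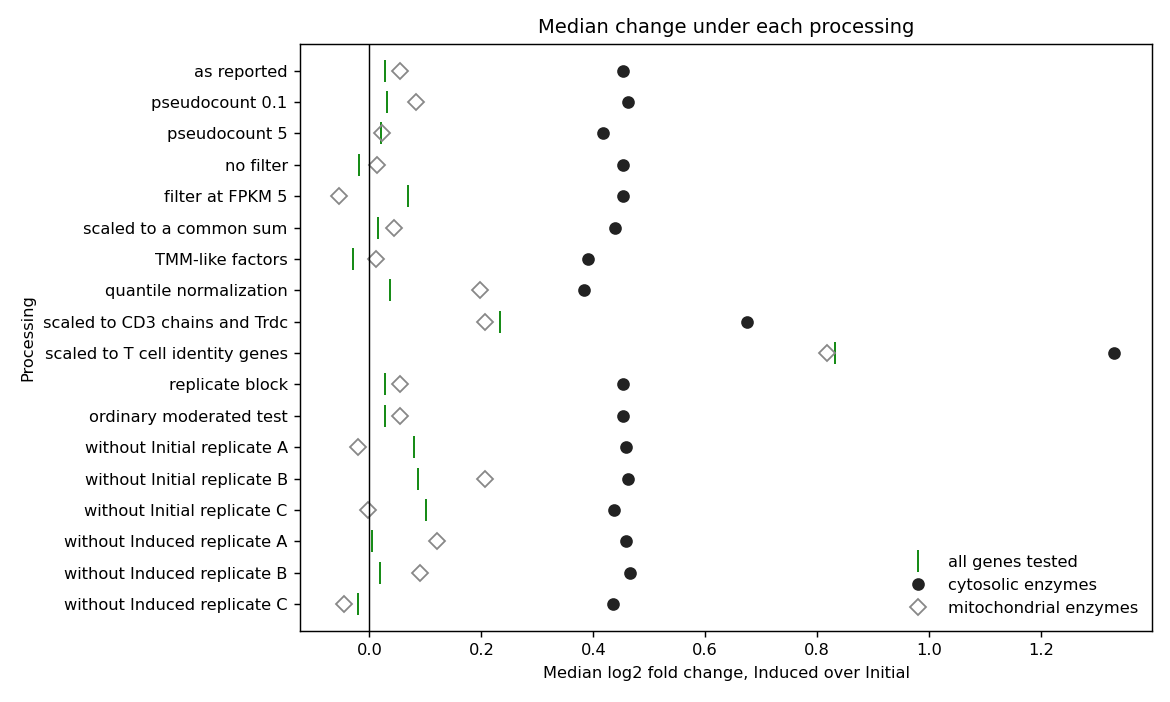
Median log2 fold change, Induced over Initial, of the cytosolic synthetase genes (filled circles), the mitochondrial ones (open diamonds) and all genes tested (green ticks), as reported and under 17 alternatives. The cytosolic circle lies 0.34 to 0.50 above the green tick of its row, and the mitochondrial diamond lies from 0.12 below it to 0.16 above it.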

How the data were processed

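Messenger RNA libraries of Initial and Induced γδT17 cells were compared, with 3 per group. Per the labels' protocols, Cuffdiff gave the deposited FPKM values. The submitters' processing notes name CASAVA, HISAT2 2.0.5, Cuffdiff 1.3.0 and 2.2.1, and the build mm9. The positions in the deposited tables are those of GRCm38: of 26669 gene identifiers found in its GENCODE annotation, 99.94% lay on the same chromosome and 91.14% inside the listed span, and positions are given from that annotation. The sources used here do not say if counting was by strand. A gene missing from a table was taken as 0, and 24 symbols turned into dates were restored.

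Testing was done in R 4.3.3 by limma 3.58.1, applied to log2(FPKM + 1) of genes that reached an FPKM of 1 in 3 or more libraries. The test was two-sided with no block, used robust trended variances, and called a gene at an adjusted p under 0.05. The fit was tested on simulated data with independent noise and a small share of changed genes. In the real data most tested genes were called, so that run gives no error rate for them. Since the same mouse letters stand in the titles of both groups, libraries are paired by animal. Deviations from the group means correlated by 0.0393, 0.0307 and 0.131 between libraries of the same mouse and by -0.132 to 0.0988 between mice. The labels do not say how each library was prepared, so p-values measure the spread between these libraries. Ratios within a library were compared by an exact permutation test that did not use the pairing by mouse.

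No counts were used. Depth was estimated from the steps between low values, and is rough: 45.1 to 49.5% of them were whole multiples to within 0.15, and 30% would be by chance. Exon overlaps were read from GENCODE, near-identical copies were searched with blastn 2.17.0 (at least 90% identity over 200 bases), and promoters came from RefSeq (GRCm38.p6). Python 3.11.15 (numpy 2.4.6, pandas 2.3.3) made the tables and matplotlib 3.10.9 the figures.

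The synthetase genes, the lists and the alternatives were chosen with earlier results of these data known. Values in every library are given for called genes that changed at least 2-fold, for the 3 largest and the 3 smallest changes in each compartment and for pairs that differ by at least 1, and up to 4 called genes with the largest changes are named from each list of related genes. Tried as alternatives were a pseudocount of 0.1 or 5, no filter or one at FPKM 5, a common sum, scaling factors of the TMM kind, quantile normalization, scaling to Trdc and the CD3 genes (Cd3d, Cd3e, Cd3g and Cd247) or to 20 T cell identity genes, a replicate block for the mouse, limma without trend and robust shrinkage, and each library left out in turn. Some of the genes and stretches these rules take are not reported here.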

Additional observations from a re-analysis of the deposited data

How the results depend on the processing

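Of the 13 cytosolic rises 12 were called under each of the 17 alternatives, all but Eprs, and of the 4 mitochondrial rises 3 were, all but Iars2. None of the 4 mitochondrial falls was. Ears2 and Nars2 each kept their call in 16 of the 17 and lost it only with scaling to T cell identity genes. There the median of all genes tested was 0.83, so small falls could hardly be kept and rises could hardly be lost. The cytosolic fall count of 0 became 2 with a common sum, with TMM-like factors and with quantile normalization. With the mouse as a replicate block it was 1 (Sars), and Eprs lost its call; the replicate block changed no other call among the synthetases. Scaled to the CD3 chains and Trdc, the cytosolic median was 0.67 and the mitochondrial median 0.21, with 7 mitochondrial rises and 2 falls. Scaled to T cell identity genes, the medians were 1.33 and 0.82, with 20 cytosolic and 13 mitochondrial rises and 0 mitochondrial falls. With quantile normalization the mitochondrial median was 0.20. The cause of these shifts beyond the scaling itself was not tested. Leaving out one library gave 12 to 13 cytosolic rises and 0 to 2 falls (1 without Initial A and 2 without Induced C), 3 to 5 mitochondrial rises and 3 to 4 falls, cytosolic medians of 0.43 to 0.47 and mitochondrial medians of -0.046 to 0.21 (0.21 without Initial B). Calls gained that way were a rise of Farsa without Initial C, a rise of Rars2 without Induced B, and falls of Sars without Initial A or Induced C and of Nars without Induced C.

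Single genes changed sign as follows. Scaled to the CD3 chains and Trdc, Nars was at 0.060, Qars at 0.21, Sars at 0.032, Cars2 at 0.18, Hars2 at 0.022 and Yars2 at 0.14. Scaled to T cell identity genes, Nars was at 0.72, Qars at 0.86, Sars at 0.69, Cars2 at 0.82, Ears2 at 0.15, Fars2 at 0.42, Hars2 at 0.65, Lars2 at 0.58, Nars2 at 0.23 and Yars2 at 0.77. Leaving out one library, Wars2 ran from -0.046 to 0.21, Qars from -0.065 to 0.021 and Cars2 from -0.063 to 0.0059. Mars2 lay too low for the filter and was tested only with no filter; what limits the precision of the other genes was not tested.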
